A study of Homo sapiens with 8 samples.

Results

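The 2 keratin gene clusters of the human genome were examined for dimethylation of lysine 4 of histone H3 (H3K4me2) in RD cells, an established rhabdomyosarcoma line. Members were all H3K4me2 peaks that overlapped chr12:52560000-53350000, which holds the type II keratin genes together with KRT18, or chr17:38800000-39790000, which holds the type I keratin genes and the keratin-associated proteins (both in hg19). Peaks of the 4 library lists sharing 1 bp or more were joined into regions, and 32 of 58952 marked regions were members, 18 in the type II interval and 14 in the type I interval. The rule picks regions by position.

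The siLSD1 group is RD cells transfected with a small interfering RNA against LSD1, and the siCtrl group is RD cells given a control siRNA. Both were transfected with the same lipid reagent and harvested after 96 hours. Each group has 2 ChIP libraries, which the submitters call biological replicates, and a further peak list from its pooled replicates. Knockdown relied on a single siRNA construct, and its extent was not measured in these data. Peak lists hold no expression values, so the labelled cell type was not checked against marker genes.

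Keratins are the intermediate filament proteins of epithelia. A filament needs a type I and a type II partner. KRT8 and KRT18 form the pair of simple epithelia, KRT5 and KRT14 that of basal epidermal cells, and KRT1 and KRT10 that of differentiating epidermis, while KRT81, KRT83, KRT85 and KRT86 are hair keratins and the keratin-associated proteins fill the matrix of the hair shaft. RD cells derive from a tumour with skeletal muscle features, a lineage whose own intermediate filaments are built of desmin and vimentin. H3K4me2 marks active and poised promoters and enhancers, and LSD1 removes it.

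In RefSeq (GRCh38.p14) 27 protein-coding keratin genes lie in a row on chromosome 12, from KRT80 and KRT7 to KRT8 and KRT18. On chromosome 17 the row has 28 keratin genes and 34 genes for keratin-associated proteins, from KRT222 to KRT17, with the keratin-associated proteins as a block between KRT40 and KRT33A. That table is on another build than the peaks, so it gives only names and order here. Coordinates on hg19 were at hand for KRT85 alone, on the minus strand at chr12:52753790-52761309. No list had a peak over KRT85. The nearest marked sequence ended 31.8 kb before it and the next began 469 kb after it. The sequence of the 250 bases before its start (chr12:52367482-52367731, minus strand, GRCh38.p14, from RefSeq) is shown because it belongs to the keratin gene that could be placed in unmarked chromatin, and capitals mark each CG:
KRT85: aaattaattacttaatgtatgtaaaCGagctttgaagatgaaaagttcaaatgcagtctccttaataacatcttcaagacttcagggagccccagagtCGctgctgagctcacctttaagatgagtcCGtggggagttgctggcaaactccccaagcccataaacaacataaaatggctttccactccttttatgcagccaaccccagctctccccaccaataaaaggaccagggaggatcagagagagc
It holds 3 CG dinucleotides, read on its own strand and palindromic on the other. At least as many are found in 77.1% of the 35116 promoter sequences of the same length in that table. KRT85 has 2 starts there, and the sequence printed belongs to the more upstream one.

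The list of siCtrl replicate 1 had 33878 peaks, that of replicate 2 had 44831, and the siLSD1 lists had 50587 and 49611. Read depth is unknown, and list length and siRNA cannot be told apart. Lists shortened to the 33878 top-scoring peaks of each library are therefore given beside the full lists. With 2 libraries per group, the smallest two-sided exact permutation p is 0.333, and p-values measure only the spread between these libraries.

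Most of both clusters carried no H3K4me2 peak in any of the 6 lists. In the type II interval, 747 kb of 790 kb (94.6%) were unmarked, in 18 stretches. In the type I interval, 960 kb of 990 kb (97.0%) were unmarked, in 21 stretches. Shares this high are near that of the whole genome: peaks of any list covered 4.87% of chromosomes 1 to 22 and X, 5.42% of the type II interval and 3.0% of the type I interval. The neighbouring 500 kb on each side were more densely marked: in the 4 libraries, 7.04% to 16.1% of the type II flanks lay under peaks and 2.09% to 4.13% of the type II interval itself. On chromosome 17 the flanks had 9.84% to 14.2% and the interval 0.794% to 1.85%. These shares are descriptions of single loci and were not tested.

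The longest unmarked stretch of the type II cluster ran over 509 kb, chr12:52721941-53230654, and KRT85 lies inside it. Of 62754 stretches between marked sequence on all chromosomes, 587 were as long or longer, and the median was 14.7 kb. In gene order 5 keratins precede KRT85 (KRT80, KRT7, KRT86, KRT81 and KRT83) and 21 follow it, from KRT84 through the epidermal keratins KRT6A, KRT5, KRT1 and KRT2 to KRT8 and KRT18. How many of the 21 lie in the stretch was not computed, as their hg19 positions were not used here. The next longest type II stretches measured 47.4 kb (chr12:52587379-52634821) and 43.3 kb (chr12:53275055-53318382).

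The type I cluster had its mark scattered rather than parted by a single gap. Its 3 longest unmarked stretches measured 168 kb (chr17:38805883-38974019), 158 kb (chr17:39262470-39420572) and 139 kb (chr17:39421133-39559805). The final 83.9 kb of the interval, on the side where gene order places KRT14, KRT16 and KRT17, were also without a peak in every list. In 10-kb windows, 64 of 79 windows of the type II interval and 78 of 99 of the type I interval were unmarked in all lists, and 7 and 4 windows were marked in all lists.

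**Figure D1:**
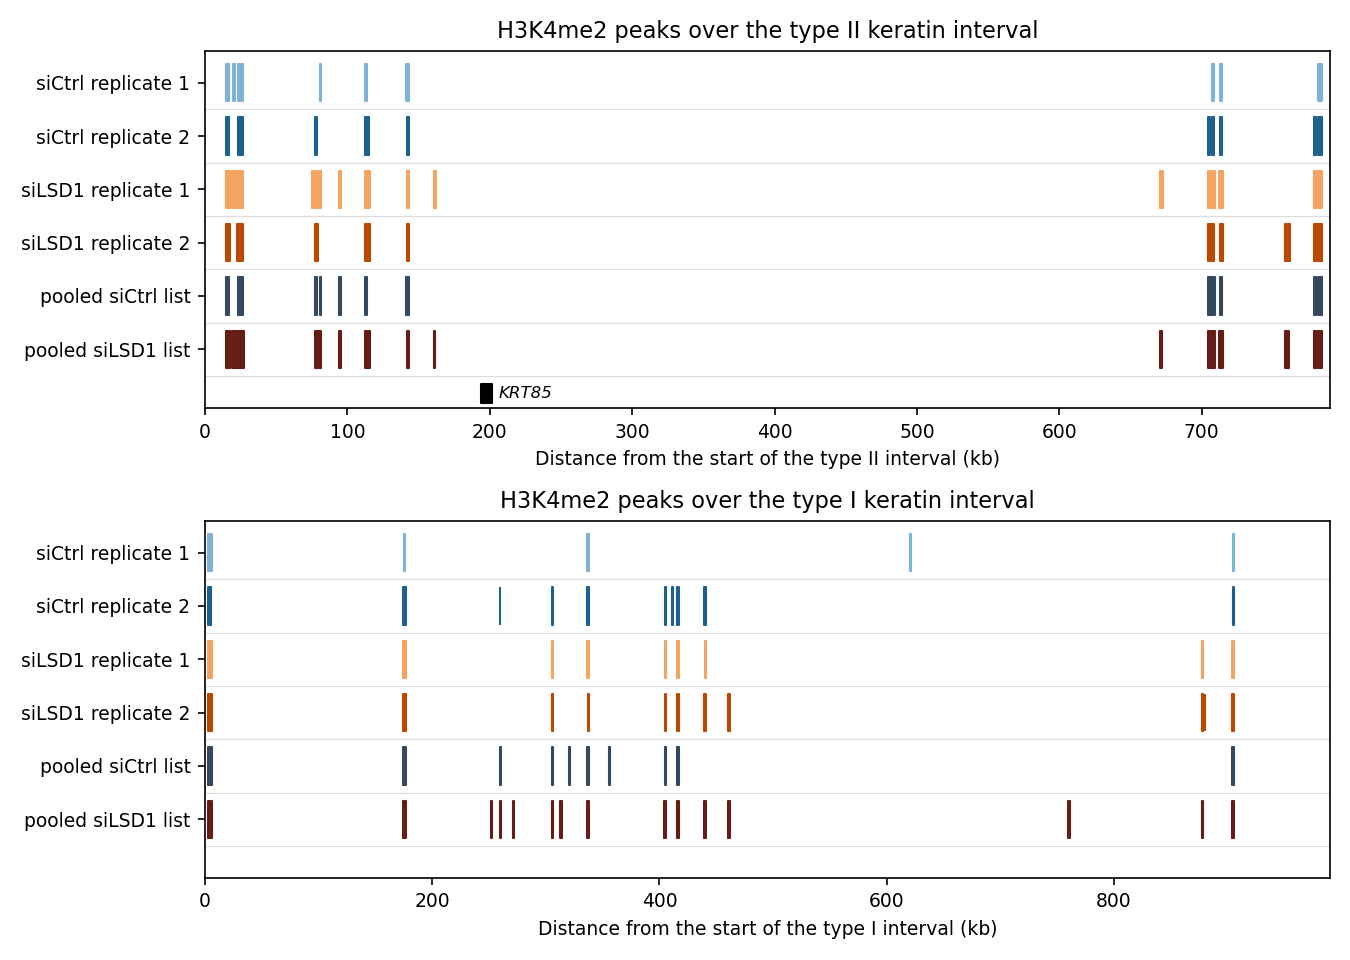
Peaks of the 4 library lists and 2 pooled lists along each keratin interval, with distance from the interval's start in kb on the x axis and a row per list; each bar is a peak to scale with a thin outline, and the black bar is KRT85. Type II peaks sit at both ends around an empty stretch of 509 kb, and type I peaks are scattered, with the longest empty stretch at 168 kb.

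The edges of the intervals fell in unmarked sequence. The first type II region began 14.5 kb inside the interval and the last, over all 6 lists, ended 5.11 kb before its end, while the nearest marked sequence outside lay 1.41 kb before and 13.7 kb after it. On chromosome 17 the corresponding distances were 2.22 kb and 83.9 kb inside, and 23 kb and 0.701 kb outside.

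Type II peaks formed a block at each end of the cluster. The first block, chr12:52574501-52721940, held 10 of the 18 regions and lies on the side of KRT85 where gene order places KRT80, KRT7, KRT86, KRT81 and KRT83. The second, chr12:53230655-53344886, held 8 regions and reaches to the KRT8 and KRT18 end. Sequence under peaks in the first block was 10.3 and 11.0 kb in siCtrl replicates 1 and 2 and 20.6 and 13.2 kb in siLSD1 replicates 1 and 2. Both siLSD1 libraries were above both siCtrl libraries, and siLSD1 replicate 1 stood far above the other. After the lists were shortened to equal numbers of peaks, the values were 10.3 and 8.64 kb after siCtrl and 13.1 and 6.0 kb after siLSD1, so that the groups overlapped. In the second block the values were 6.18 and 9.56 kb after siCtrl and 12.1 and 14.4 kb after siLSD1, again without overlap of the groups. With equal numbers they were 6.18 and 8.42 kb after siCtrl and 10.5 and 10.4 kb after siLSD1, and the groups remained apart. These siLSD1 values include regions called in a single library. In replicate 1 the region that opens the block gave 1.94 kb, and in replicate 2 a pair of adjacent regions gave 1.42 and 1.58 kb. Without these regions siLSD1 replicate 2 falls below siCtrl replicate 2 with equal numbers of peaks, though not with all peaks. Both blocks were drawn from these same lists, and the region that opens the second was in siLSD1 replicate 1 alone among the libraries. The separation of the groups in it was not tested and is no support for a change.

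The region nearest the KRT18 end, chr12:53341668-53344879, was marked in every list and ended 5.12 kb before the end of the interval. Its peak scores, the authors' own values for each peak, were 352.21 and 953.26 in siCtrl replicates 1 and 2 and 468.53 and 457.1 in siLSD1 replicates 1 and 2. Each score lay above at least 71.5% of the peaks of its own list. Sequence under peaks there was 2.56 and 2.98 kb after siCtrl and 2.62 and 3.21 kb after siLSD1. The groups overlapped, and the difference of 0.148 kb turned to -0.145 kb without siLSD1 replicate 2 and to -0.0585 kb without siCtrl replicate 1. KRT8 and KRT18 are the last keratins in this direction, followed by EIF4B, a translation initiation factor, but whether the region lies over either gene was not computed.

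The highest mean score of the type II interval belonged to chr12:53266881-53269247, with 259.94 and 792.67 in the siCtrl libraries and 435.9 and 886.48 in the siLSD1 libraries. Replicates 2 scored higher than replicates 1 under both siRNAs. The median scores of the whole lists had that order too, with 278.62 against 174.78 for siCtrl and 206.49 against 177.97 for siLSD1. It was covered over 1.81 and 1.96 kb after siCtrl and 2.20 and 2.08 kb after siLSD1, 0.249 kb more on average. A neighbour at chr12:53272473-53275054 had scores of 184.3, 577.14, 464.98 and 389.6 in the same library order. Its breadth was 1.81 and 1.98 kb after siCtrl and 2.58 and 2.07 kb after siLSD1. Both regions were thus broader in both siLSD1 libraries, by less than 0.5 kb.

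At the KRT80 end, chr12:52582469-52586935 was the broadest type II region and was found in all lists. It had 3.19 and 3.52 kb under peaks after siCtrl, and 4.37 and 4.47 kb after siLSD1. The means were 3.35 ± 0.237 kb (SD, n = 2) and 4.42 ± 0.0658 kb (SD, n = 2), a difference larger than the spread within either group. Scores were 277.15, 413.99, 426.12 and 721.23 in siCtrl replicates 1 and 2 and siLSD1 replicates 1 and 2. The difference was 1.07 kb with all peaks and with equal numbers of peaks. On the KRT83 side of KRT85, chr12:52701467-52703412 went the other way, with 1.64 and 1.92 kb after siCtrl and 1.63 and 1.54 kb after siLSD1. Its scores were 287.53 and 479.56 after siCtrl and 125.27 and 308.61 after siLSD1.

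The 6 regions of the type II interval found in a single library list were all from siLSD1 libraries, 4 in replicate 1 and 2 in replicate 2. Of these 6, 1 also had a peak in the pooled siCtrl list, with a score of 108.6. Over all chromosomes 14488 of 58952 regions were in a single library. How those divide among the libraries is not given here, and the siLSD1 lists were the longest. The remaining type II regions were 7 found in all 4 libraries, 3 in all but siCtrl replicate 1, and 2 in siCtrl replicate 1 with siLSD1 replicate 1. The pair at chr12:53318454-53319877 and chr12:53320372-53321947, named after its values were seen, was called in siLSD1 replicate 2 alone, with scores of 158.25 and 143.82. A single peak of the pooled siLSD1 list spanned both, with a score of 269.04, and the pooled siCtrl list had none. As siLSD1 replicate 1 had no peak there, the pair did not count as gained.

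In the type I interval 4 of 14 regions were found in every library. The region of highest mean score, chr17:38802223-38805828, lay at the interval's start, next to KRT222 in gene order and on the side of SMARCE1, which encodes a subunit of a chromatin remodelling complex and is no keratin. It had 3.16 and 3.22 kb under peaks after siCtrl and 3.12 and 3.47 kb after siLSD1, so the groups overlapped. Scores were 275.11 and 827.84 after siCtrl and 248.48 and 992.17 after siLSD1. Replicates 2 were higher than replicates 1, as in the median scores of the whole lists. The difference was 0.103 kb, and -0.0715 kb without siLSD1 replicate 2. Whether the region lies over KRT222, over SMARCE1 or over neither was not computed, so it may not belong to a keratin gene.

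Inside the cluster, chr17:38974048-38976745 had 0.993 and 2.65 kb under peaks after siCtrl and 2.14 and 2.49 kb after siLSD1. The siCtrl libraries lay on both sides of the siLSD1 libraries, with scores of 167.56 and 652.29 against 217.51 and 316.42. The direction of the mean difference, 0.494 kb, was -0.333 kb without siCtrl replicate 1 and -0.488 kb with equal numbers of peaks. Toward the other end, chr17:39703705-39706142 was covered over 1.43 and 1.70 kb after siCtrl and 1.79 and 2.44 kb after siLSD1. Its scores of 213.49 and 368.96 after siCtrl were both below the 523.63 and 495.01 after siLSD1. Scores from lists of different lengths do not show a change in the mark.

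The stretch chr17:38974020-39262469, which starts with the first of these 2 regions, held 9 of the 14 type I regions. Sequence under peaks in it was 2.71 and 9.85 kb in siCtrl replicates 1 and 2 and 7.96 and 10.7 kb in siLSD1 replicates 1 and 2, so siCtrl replicate 1 stood apart from the other 3 libraries. In lists of equal numbers of peaks the values were 2.71 and 4.09 kb after siCtrl and 2.56 and 7.70 kb after siLSD1, and siLSD1 replicate 2 was the highest. Of its regions that siCtrl replicate 1 lacked, the 2 of highest mean score were chr17:39215411-39217351, with scores of 196.48 in siCtrl replicate 2 and 103.31 and 207.9 in the siLSD1 libraries, and chr17:39239504-39241128, with 98.27, 75.07 and 330.24 in the same order. In all, 4 type I regions were present in every library but siCtrl replicate 1, whose list was the shortest. The remaining type I regions comprised 1 gained region and 5 found in a single library, of which siCtrl replicate 1 held 1, siCtrl replicate 2 held 2 and siLSD1 replicate 2 held 2.

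**Figure D2:**
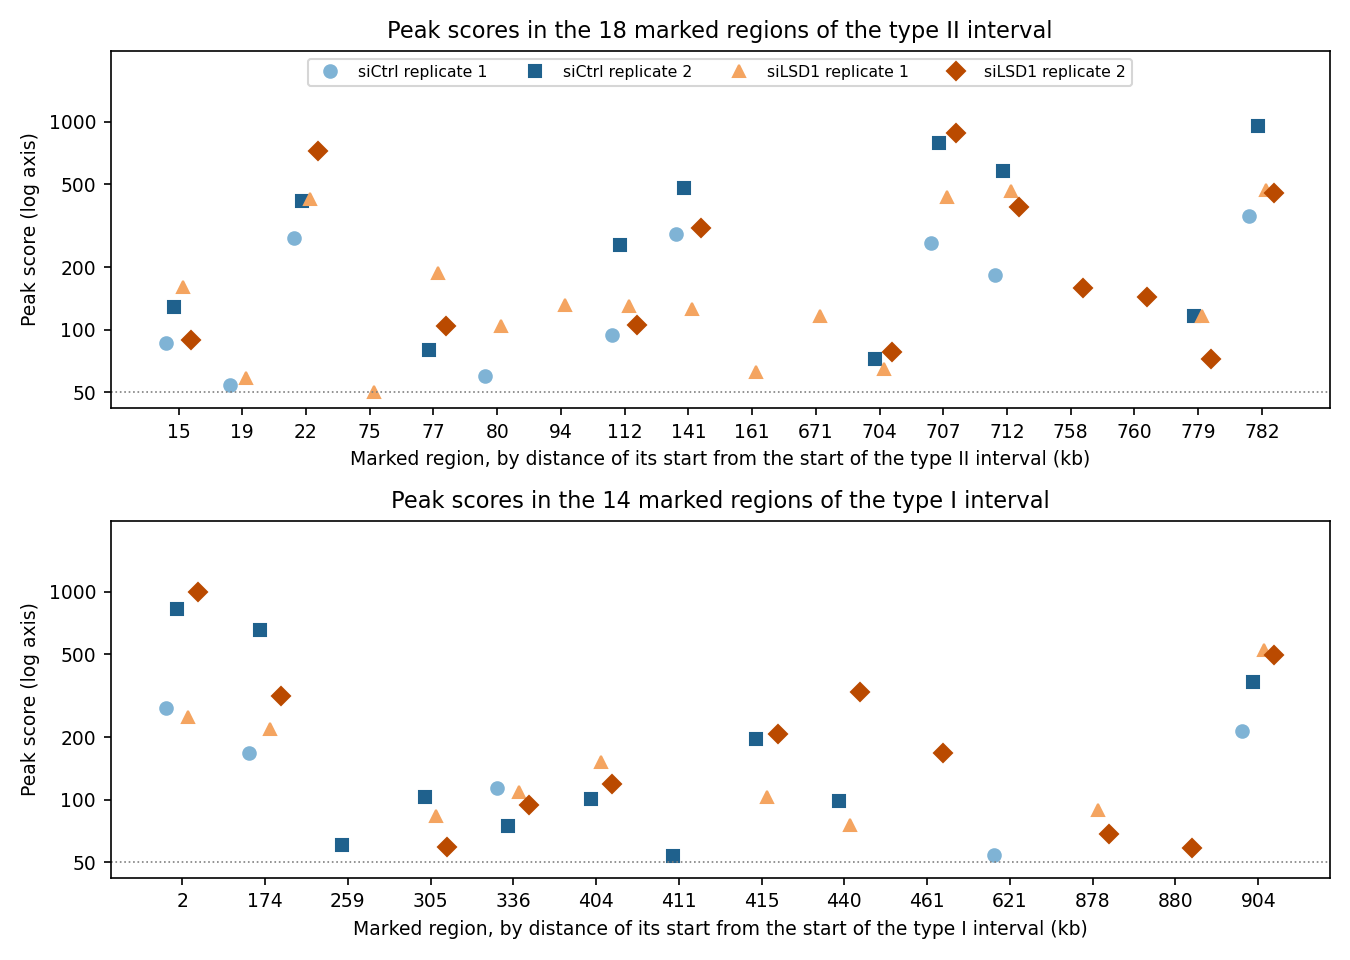
Peak score of each library on a log axis (the dotted line is a score of 50) for the 18 type II and 14 type I regions, ordered by distance from the interval's start in kb; a library without a peak has no symbol, and the highest peak is plotted where a library has more than 1. Regions marked in every library reach scores such as 953.26 and 992.17, and those of a single library range from 50.24 to 166.72.

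The comparison of interest was whether the clusters held more marked sequence after the siRNA against LSD1. In the type II interval, siCtrl replicates 1 and 2 had 16.5 and 20.6 kb under peaks and siLSD1 replicates 1 and 2 had 32.7 and 27.6 kb. Both siLSD1 libraries lay above both siCtrl libraries. The means were 18.5 ± 2.92 kb (SD, n = 2) and 30.1 ± 3.60 kb (SD, n = 2), a ratio of 1.62, with a two-sided exact permutation p of 0.333, the smallest this design allows. Over all chromosomes the ratio was 1.23. With equal numbers of peaks the type II values were 16.5 and 17.1 kb after siCtrl and 23.5 and 16.4 kb after siLSD1, so that the groups overlapped and the difference fell from 11.6 to 3.18 kb (two-sided exact permutation p = 1.00). In the 4 flanking stretches the ratio with all peaks ran from 1.14 to 1.21, and in the type I interval it was 1.43. With equal numbers of peaks it was 1.19 in the type II interval, 1.25 in the type I interval and 0.979 to 1.09 in the flanks.

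In the type I interval the groups overlapped with all peaks. Sequence under peaks was 7.86 and 14.8 kb after siCtrl and 14.0 and 18.3 kb after siLSD1. The means of 11.3 ± 4.89 kb (SD, n = 2) and 16.1 ± 3.07 kb (SD, n = 2) differed by 4.83 kb, with a two-sided exact permutation p of 0.667. That is less than the siCtrl replicates differed from each other and somewhat more than the siLSD1 replicates did. The difference between the means was 1.37 kb without siCtrl replicate 1, 8.29 kb without siCtrl replicate 2, 2.66 kb without siLSD1 replicate 2 and 7.0 kb without siLSD1 replicate 1. With equal numbers it was 2.11 kb, from 7.86 and 9.01 kb after siCtrl and 7.47 and 13.6 kb after siLSD1 (two-sided exact permutation p = 1.00).

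**Figure D3:**
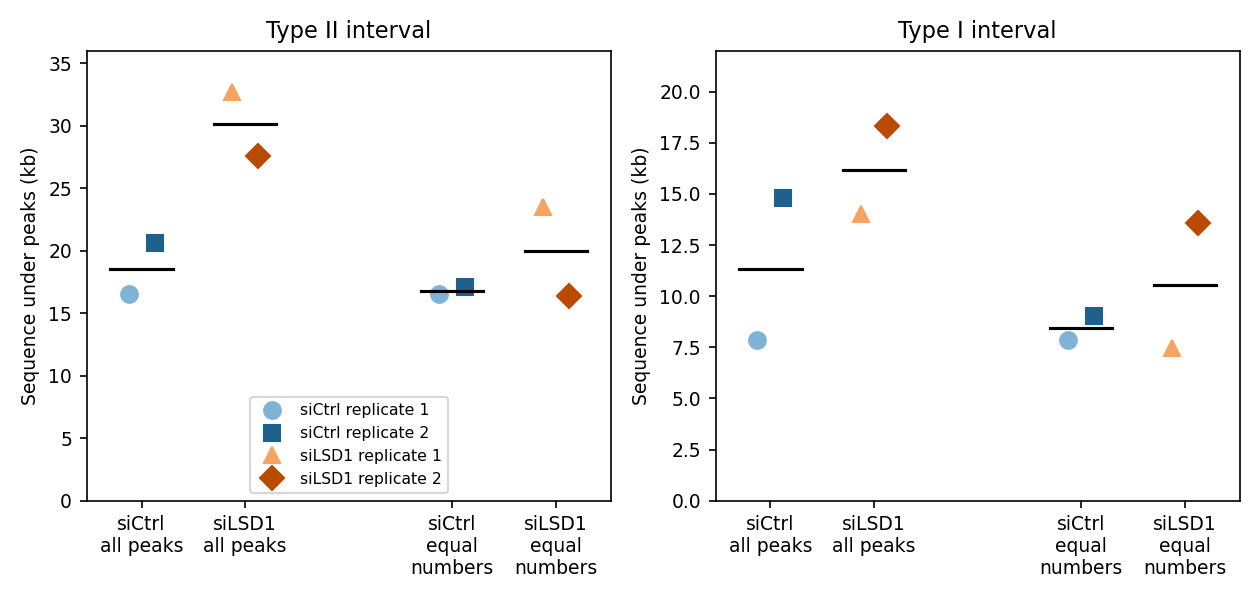
Sequence under peaks in kb in each keratin interval, with all peaks and with equal numbers of peaks per list; symbols are libraries and horizontal lines are the means of 2. With all peaks the type II siLSD1 libraries (32.7 and 27.6 kb) sit above the siCtrl libraries (16.5 and 20.6 kb), and with equal numbers the groups overlap in both intervals.

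Next, regions were sorted by the libraries that held them. Regions called gained had peaks in the 2 siLSD1 libraries and in no siCtrl library; lost is the opposite. Of the 32 members 1 was gained, against 6.97% of all regions, and 0 were lost, against 1.04%. Found in all 4 libraries were 11 members (34.4%), against 45.2% of all regions. The counts moved when a lone library stood for its group. Without siCtrl replicate 2, 9 of 31 members were gained, against 19.5% of all regions, and 1 was lost, against 2.54%. Without siLSD1 replicate 1, 5 of 29 were gained (17.9% of all regions), and without siLSD1 replicate 2, 5 of 28 (16.8% of all regions). Without siCtrl replicate 1, 2 of 31 were lost, against 7.05% of all regions, and 18 were common, against 57.4%. With equal numbers of peaks 24 member regions were left, of which 8 (33.3%) were common, against 54.4% of all regions. The members' shares were not tested against those of all regions.

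The gained region was chr17:39677611-39678745 in the type I interval. It had 1.10 and 0.967 kb under peaks in siLSD1 replicates 1 and 2, with scores of 89.11 and 68.49, and none in the siCtrl libraries. The pooled siLSD1 list held it with a score of 152.71 and the pooled siCtrl list lacked it. Both scores were low in their lists, above 24.4% and 12.4% of peaks, and with equal numbers of peaks neither library kept it. With equal numbers a different region, chr17:39204449-39205751, counted as gained, against 3.29% of all regions. Its full-list scores were 100.38 in siCtrl replicate 2 and 151.32 and 119.33 in the siLSD1 libraries, so the siCtrl peak was removed when the list was shortened. With equal numbers 0 members were lost, against 3.42% of all regions.

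Among the 11 members marked in every library, 6 had both siLSD1 values above both siCtrl values (broader), against 30.3% of all such regions, and 2 were narrower, against 9.62%. The median difference over the 11 was 0.429 kb, and 0.126 kb over all 26653 common regions. Of the 6 broader regions, 5 lay in the type II interval. Besides those described, they were chr12:52574677-52577733, with 1.98 and 1.79 kb after siCtrl and 3.06 and 2.96 kb after siLSD1, and chr12:52672025-52675647, with 1.31 and 2.35 kb after siCtrl and 3.42 and 2.69 kb after siLSD1. The second narrower region was chr17:39136215-39137932, whose breadth was 1.72 and 1.59 kb after siCtrl and 1.39 and 1.13 kb after siLSD1. These 3 were named because they complete the counts. None of the 3 was common with equal numbers of peaks: the 2 type II regions had no peak in siLSD1 replicate 2, and the type I region kept a peak in siCtrl replicate 1 alone. Of the 8 members still common, 4 were broader, against 30.0% of all common regions, and 1 was narrower, against 9.43%.

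**Figure D4:**
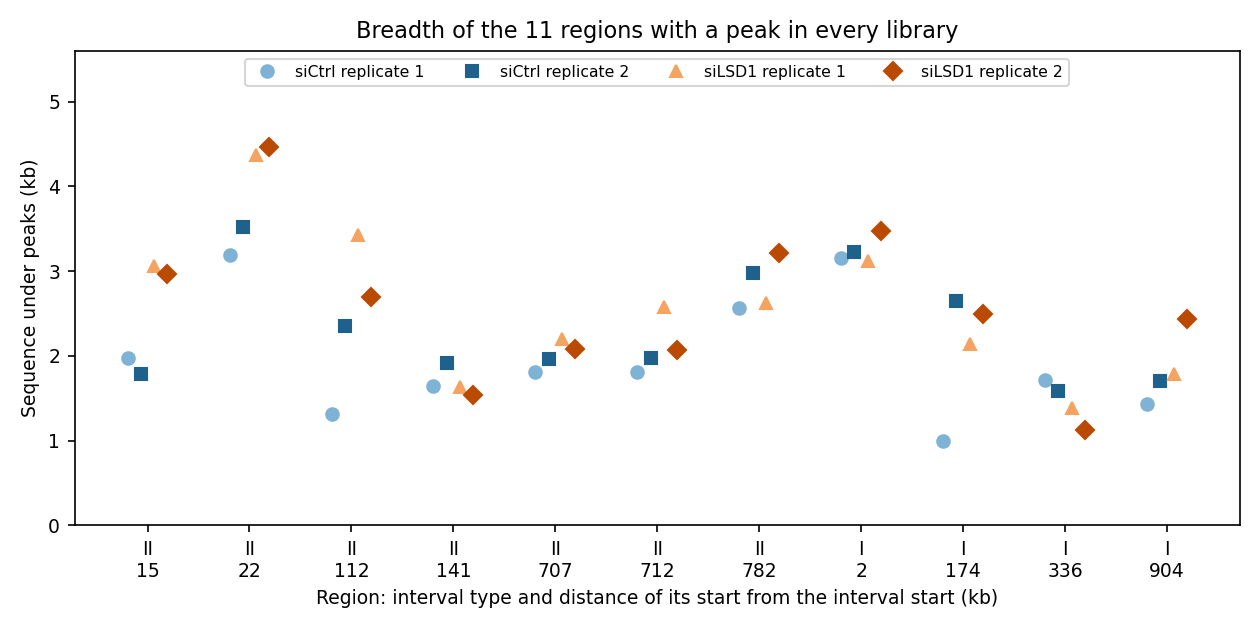
Sequence under peaks in kb in each library for the 11 regions marked in every library, labelled by interval type and by distance from the interval's start in kb. The KRT80-end region 22.5 kb into the type II interval separates the groups (3.19 and 3.52 kb against 4.37 and 4.47 kb), while the region at the KRT18 end overlaps (2.56 and 2.98 kb against 2.62 and 3.21 kb).

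Covered sequence per 10-kb window was then compared with limma over 43372 windows of the genome, of which 19 lay in the keratin intervals. After Benjamini-Hochberg adjustment limma called 0 of the 19 and 0 of all windows (0% in either direction). At an unadjusted p under 0.05, limma had 2 of the 19 higher after siLSD1 and 0 lower, where 12.4% and 1.94% of all windows were. Over the 19 windows 17 differences were above 0 and 2 below, with a median of 0.551 kb, and the median over all windows was 0.213 kb. With equal numbers of peaks 13 windows were tested, of which 8 differences were above 0 and 5 below. Their median was 0.103 kb, against 0.0965 kb over all windows. The shares of all windows with a difference above 0 are not given here, so neither count is read as a result about the clusters.

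The smallest p of the type I interval was that of chr17:39670001-39680000, the window of the gained region, with 0 kb in both siCtrl libraries and 1.10 and 1.19 kb after siLSD1. The difference was 1.14 kb with a standard error of 0.171 kb (limma adjusted p = 0.129). This window passed the filter of at least 0.5 kb in at least 2 libraries only through the siLSD1 libraries. With both siCtrl libraries at 0 kb, that group added no spread, so the window's rank is no support for a gain. The 1.19 kb of siLSD1 replicate 2 includes part of a neighbouring region called in that library alone. In chr17:39240001-39250000 the difference was 0.672 kb with a standard error of 0.302 kb, and in chr17:39130001-39140000 it was -0.392 kb with a standard error of 0.189 kb (limma adjusted p = 0.527 and 0.553). In the type II interval chr12:52570001-52580000, the first marked window at the KRT80 end, had 2.35 and 1.79 kb after siCtrl and 3.82 and 2.96 kb after siLSD1, a difference of 1.32 kb with a standard error of 0.430 kb (limma adjusted p = 0.343). With equal numbers of peaks its difference was -0.542 kb. The windows at chr12:53260001-53270000 and chr12:52580001-52590000 differed by 1.40 kb and 1.21 kb with standard errors of 0.532 kb and 0.477 kb (limma adjusted p = 0.435 and 0.455). With equal numbers these differences were 0.249 kb and 0.665 kb. The first was 0.758 kb without siCtrl replicate 1, and the second was 0.711 kb without siLSD1 replicate 1. None of the 6 windows passed the threshold.

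The pooled lists, made by the authors from both replicates, showed the same layout. The pooled siCtrl list had 12 type II and 10 type I peaks over 24.1 and 16.2 kb, and the pooled siLSD1 list had 16 and 15 peaks over 40.1 and 24.9 kb. Of the 31 member peaks of the pooled siLSD1 list, 11 had no counterpart in the pooled siCtrl list (background 27.0%). Of the 22 member peaks of the pooled siCtrl list, 2 had none in the pooled siLSD1 list (background 8.86%). The 11 peaks had a median score of 133.61, against 297.1 for the 20 shared peaks of that list. Of the 11, 4 were in no library list, all in the type I interval, and so were both peaks found only in the pooled siCtrl list. A peak at chr17:39559806-39561019, with a pooled score of 133.61, was the highest scoring of the 4 and lay alone between unmarked stretches of 139 kb and 116 kb. The pooled siCtrl list had no peak in it.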

How the data were processed

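H3K4me2 ChIP-seq of RD cells gave 4 library and 2 pooled peak lists, and the 4 input libraries were not analysed here. Per the submitters' processing notes, reads were aligned with Bowtie to hg19. Peak names carry the name of MACS, and its settings, control and pooling method are not stated in the sources used here. Deposited lists give positions and, per peak, a score of the authors' caller. Its scale is not named, so it served to describe peaks and to rank them inside 1 list, also to shorten lists. The exception is the mean score by which regions were chosen for naming. It averages scores over the libraries with a peak, although the median scores of the library lists ran from 174.78 to 278.62. Read depth is unknown.

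Peaks on chromosomes 1 to 22 and X were merged by overlap of at least 1 bp. Kilobases under peaks per 10-kb window, in windows with at least 0.5 kb in at least 2 libraries, were compared with limma 3.58.1 (trend, robust, R 4.3.3), adjusted over all windows. Interval totals were compared with exact permutation tests. Regions named are the 5 of highest mean score per interval, every gained or lost region and the 3 windows of smallest p. KRT85 came from the hg19 sample in GenomicFeatures 1.54.1, chromosome lengths from GenomeInfoDb 1.38.1. Other steps used Python 3.11.15, and scripts were tested on simulated data. Members, lists and tests were chosen with earlier results of these data known.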

Additional observations from a re-analysis of the deposited data

How the results depend on the processing

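Read depth, which the lists do not give, and 2 libraries per siRNA limit every comparison. The type II difference in covered sequence was above 0 in every setting run. It was 2.18 kb for the upper 50% of each list by score, 9.03 to 14.1 kb leaving out a library and 15.9 kb in the pooled lists. Those settings do not make the lists equally long. With equal numbers it was 3.18 kb and came from siLSD1 replicate 1 (23.5 kb). There siLSD1 replicate 2 (16.4 kb) lay below both siCtrl libraries (16.5 and 17.1 kb). The type I difference ran from 1.37 to 8.29 kb leaving out a library. With the upper 50% of each list, 11 member regions were left, of which 0 were gained and 6 were common, against 6.33% and 51.4% of all regions. Leaving out a library gave 1 to 9 gained members (7.90% to 19.5% of all regions), 0 to 2 lost (2.49% to 7.05%) and 11 to 18 common (49.0% to 57.4%). Sequence without a peak in any list, 1707 kb over both intervals, was 1739 kb with the upper 50% and 1716 kb with equal numbers. The window at chr12:52570001-52580000 turned to -0.542 kb with equal numbers (limma adjusted p = 0.950). With the upper 50%, the difference was -0.724 kb at chr17:38802223-38805828, 1.66 kb at chr12:52582469-52586935 and -1.01 kb at chr12:52701467-52703412. Causes were not tested. Among the windows of the intervals limma called 0 in every setting run, 5-kb windows and quantile normalization included, and the smallest adjusted p of a member window was 0.0914, with 5-kb windows. Over all windows limma called 0 with all peaks, 3 higher and 2 lower of 42388 with quantile normalization, and 1179 higher and 126 lower of 25524 with the upper 50%, where 8 member windows were tested and 0 had an unadjusted p under 0.05. Replicate numbers are not stated to mark a shared batch. Same-numbered libraries deviated together with a correlation of 0.150 over 43372 windows. With a replicate block limma called 0 windows of the intervals. The differences of 11.6 and 4.83 kb then had an exact permutation p of 0.50, the smallest that 2 replicate blocks allow.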
